A study of Mus musculus with 12 samples.

Results

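This comparison set mouse embryonic stem cells (ESC) against wild-type mouse endothelial cells (WT_EC), and used 6 of the 12 arrays of the series. The members were the 3 arrays titled as an established embryonic stem cell line and the 3 titled as endothelial cells without a CD47 mutation. Every gene was included that had a probe set assigned to it alone, which gave 19938 genes, each read from the probe set with the brightest mean over the 12 arrays. WT_EC were lung endothelial cells of the strain C57Bl/6, wild type for CD47, grown in the endothelial growth medium EGM2. ESC were the line V6.5, grown in DMEM with 15% fetal bovine serum and the self-renewal cytokine LIF at 1000 IU/ml. The labels give no strain and no CD47 genotype for V6.5. Cell type, medium and growth conditions changed together between the groups, and their parts, with that of any difference in strain, cannot be told apart. No treatment or time point was given for either group. The other 6 arrays, CD47 null endothelial cells and the embryoid bodies made from them, entered only the choice of probe set and an alternative fit.

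Embryonic stem cells are the cultured form of the inner cell mass of the blastocyst. A small set of transcription factors, led by Oct4 (gene Pou5f1), Sox2 and Nanog, keeps them able to form every lineage of the body, and LIF acting through Stat3 supports that state in mouse cells. They divide rapidly with a short G1 phase, hold their neighbours through E-cadherin, and respond weakly to interferon. Endothelial cells line blood vessels, hold their neighbours through VE-cadherin (Cdh5) and Pecam1, and are recognised by VEGF and angiopoietin receptors such as Kdr and Tek.

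The ESC arrays carried the pluripotency network, nearly all listed genes of DNA replication, mitosis and DNA repair, epithelial junction genes, germ line genes and silencers of retroelements at higher signal than WT_EC. The WT_EC arrays carried all 9 listed mesothelial genes at higher signal, as well as 15 of 27 genes of caveolae and the actin cytoskeleton, 18 of 29 innate immune sensors, 16 of 34 collagens and matrix genes and 14 of 29 lysosomal genes. The largest difference upward was that of Apela, at 157-fold, and the largest downward that of Cxcl13, at 118-fold. Values are log2 signals as deposited, and a difference of 1.0 on this scale is 2-fold. A gene is called different where limma gave an adjusted p below 0.05 across all 19938 genes. By that rule 6250 genes (31.3%) were called, 3803 (19.1%) higher and 2447 (12.3%) lower in ESC. At least 2-fold were 2846 of them (14.3%), 1804 higher (9.05%) and 1042 lower (5.23%). In 10271 genes (51.5%) the arrays of the groups did not overlap, called or not. These percentages are the background against which each gene group below is read. Whether more genes were higher or lower depended on scaling. The median gene stood at -0.07 as deposited and at -0.31 after the arrays were shifted to equal housekeeping signal, and with that shift 2710 genes (13.6%) were called higher and 6498 (32.6%) lower. The shift used the median of 23 housekeeping genes, which were not all even between the groups. Tfrc and Hprt were called higher in ESC (log2 differences 2.78 and 1.05), and Emc7 and Reep5 lower (-0.87 and -0.84). The shift is therefore another scaling and not a proven stable reference. The counts of a gene group under the shift are given wherever they move a direction or change by more than 1.5 times.

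The WT_EC arrays differed from each other far more than the ESC arrays. Across genes, the median SD was 0.213 among the WT_EC arrays and 0.0847 among the ESC arrays, and 717 genes (3.6%) had an SD above 1 in WT_EC against 0 in ESC. Arrays correlated across genes at 0.949 to 0.958 within WT_EC, at 0.996 to 0.998 within ESC and at 0.884 to 0.899 between the groups, where genes are not independent replicates. Nothing in the labels tells if replicates came from separate cultures or animals, so p-values measure only the spread between these samples, which may be technical. With 3 arrays against 3 the smallest p of an exact permutation test is 0.1, so such a test cannot pass 0.05 and the calls rest on limma. The array number also limits the precision of each difference. Calls given below for single genes held on leaving out any of the 6 arrays unless the text says otherwise.

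The ESC label was borne out by its markers, and the WT_EC label was not borne out by the group means of most of its own. All 8 embryonic stem cell markers were called higher in ESC, and their mean signal was 11.62 to 11.80 on the ESC arrays and 6.46 to 6.81 on the WT_EC arrays. Of 12 endothelial markers, 7 had low signal in WT_EC, meaning a group mean below 8.04, the median of all values of the 6 arrays. Their mean was 7.97, 7.18 and 8.37 on WT_EC 1, 2 and 3 and 7.46 to 7.55 on the ESC arrays, and 2 were called higher and 2 lower in ESC. Counted by array, 6, 2 and 6 of the 12 lay above that median on WT_EC 1, 2 and 3, and 5, 4 and 4 on ESC 1, 2 and 3. The 5 mesothelial markers were all well above that median on the WT_EC arrays (mean 10.92, 11.61 and 12.03) and stood at 7.79 to 7.84 on the ESC arrays. The WT_EC group is therefore named as it was labelled, without taking it to be pure endothelium. Fibroblast markers had a mean of 10.48, 10.88 and 11.69 on the WT_EC arrays and of 10.18 to 10.24 on the ESC arrays, where 6 of the 7 lay above the median on every array. The 8 macrophage and leukocyte markers had a mean of 10.46 on WT_EC 3 beside 7.76 and 6.64 on WT_EC 1 and 2. All 8 lay above the median on WT_EC 3, 3 did so on WT_EC 1, 1 on WT_EC 2 and 2 on each ESC array. The part of these other cell markers in the results below was not tested. Arrays read RNA pooled over all cells of a sample, so fewer cells of a type and less RNA per cell cannot be told apart.

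**Figure D1:**
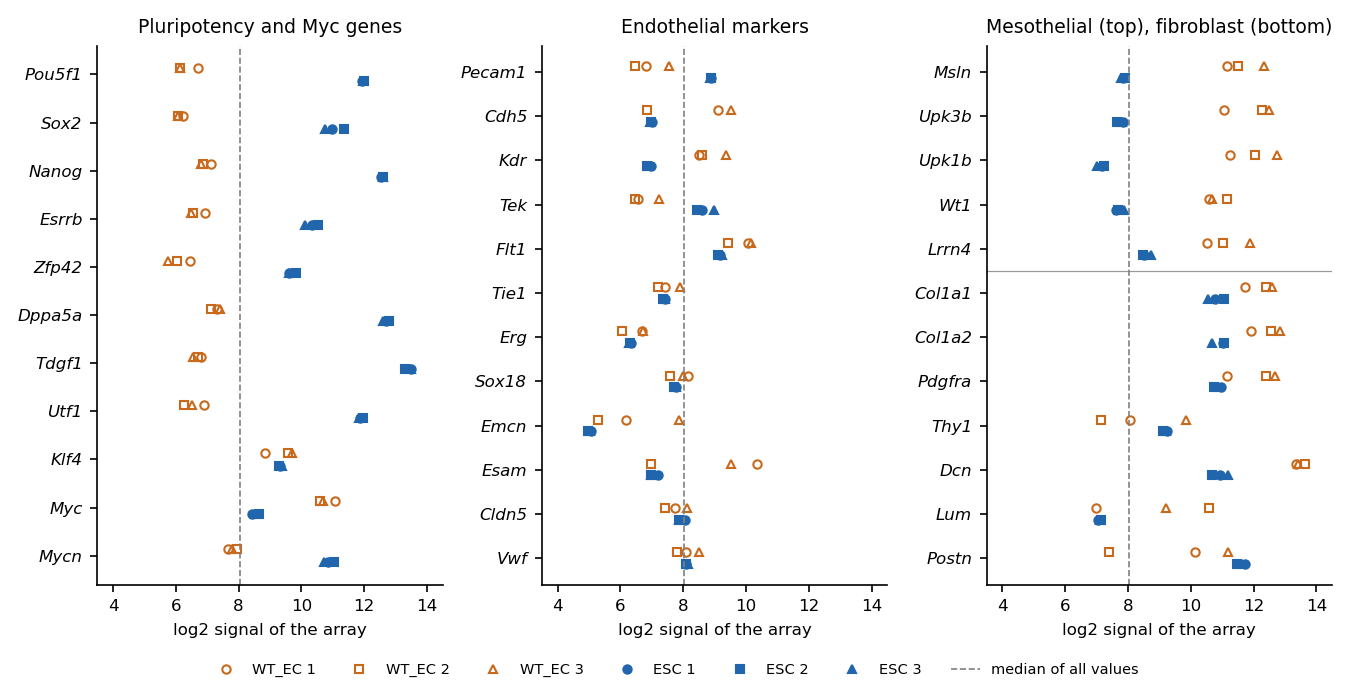
Log2 signal on each of the 6 arrays for pluripotency and Myc genes (left), 12 endothelial markers (middle) and mesothelial and fibroblast markers (right). Open orange symbols are WT_EC 1 (circle), 2 (square) and 3 (triangle), filled blue symbols are ESC 1 to 3 in the same shapes, and the dashed line is the median of all values, 8.04. Nanog stood at 6.79 to 7.12 in WT_EC and 12.54 to 12.60 in ESC, Cdh5 was above the line on WT_EC 1 and 3 only, and the mesothelial genes were high on all WT_EC arrays.

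The genes with the largest increases were mostly at low signal in WT_EC. Apela, which encodes a small secreted ligand of the apelin receptor, had 4.89, 5.12 and 5.19 on the WT_EC arrays and 12.36, 12.36 and 12.36 on the ESC arrays (log2 difference 7.29, SE 0.109, adjusted p = 2.05e-06). All WT_EC arrays were far below the median of all values and all ESC arrays far above it. The Nodal co-receptor gene Tdgf1 followed among genes of known function, with 6.80, 6.70 and 6.54 on the WT_EC arrays and 13.48, 13.30 and 13.50 on the ESC arrays (log2 difference 6.75, SE 0.113, adjusted p = 2.05e-06). Bex1, a small protein of signalling pathways in neurons and stem cells, had 5.81, 4.22 and 5.05 on the WT_EC arrays and 11.51, 11.50 and 11.50 on the ESC arrays, and it was 89-fold higher. Zfp980 and Zfp640, zinc finger genes, were 110-fold and 88.3-fold higher. Tdrd12, a tudor domain gene of the piRNA pathway, was 64.3-fold higher, and Lncenc1, a long noncoding RNA of naive stem cells, 57-fold. Of 52 genes called at least 16-fold higher in ESC, 51 had low signal in WT_EC. Low array signals hold background as well as transcript, so these folds can understate the change.

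Among the largest decreases were secreted acute phase proteins, detoxifying enzymes and mesothelial membrane proteins. Cxcl13, the chemokine that draws B cells, had 12.31, 13.01 and 12.99 on the WT_EC arrays and 5.96, 5.96 and 5.74 on the ESC arrays (log2 difference -6.88, SE 0.207, adjusted p = 1.33e-05). All WT_EC arrays lay above 12 and all ESC arrays below 6. Lcn2, which binds bacterial iron carriers, had 13.16, 13.04 and 12.51 on the WT_EC arrays and 6.90, 6.97 and 7.80 on the ESC arrays, and Saa3, an acute phase apolipoprotein, had 12.66, 13.16 and 11.15 on the WT_EC arrays and 6.72, 6.68 and 6.66 on the ESC arrays. They were 51.4-fold and 49.8-fold lower. The same direction held for the lipopolysaccharide binding protein Lbp (23-fold), transferrin (Trf, 40.6-fold) and ceruloplasmin (Cp, 29.6-fold), which carry iron and copper in plasma. The retinal dehydrogenase Aldh1a1 was 52.5-fold lower, the carboxylesterase Ces2g 37.6-fold and the monooxygenase Fmo2 33.7-fold. Fmo2 also showed the unevenness of the WT_EC arrays, with 10.46, 9.98 and 13.18 on WT_EC 1, 2 and 3. Of 21 genes called at least 16-fold lower, 21 had low signal in ESC.

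**Figure D2:**
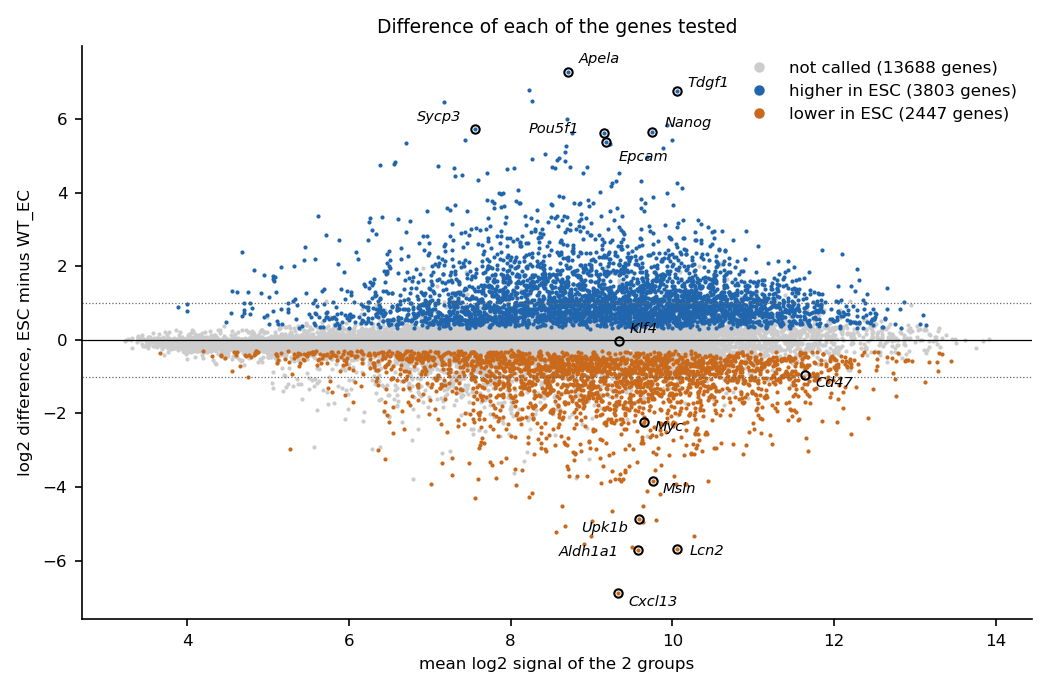
Log2 difference of each of the 19938 genes, ESC minus WT_EC (vertical axis), against its mean log2 signal over the 6 arrays (horizontal axis), coloured by call at adjusted p below 0.05 in limma, with dotted lines at 2-fold and named genes ringed. At least 8-fold were 137 genes higher and 82 lower in ESC.

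Of 44 measured genes of the naive and core pluripotency list, 39 were called higher in ESC, 1 lower and 4 were not called, with a median difference of 3.14 beside -0.07 for all genes. Among all genes 19.1% were called higher and 12.3% lower. Nanog had 7.12, 6.87 and 6.79 on the WT_EC arrays and 12.54, 12.60 and 12.60 on the ESC arrays (log2 difference 5.66, SE 0.113, adjusted p = 3.3e-06). Pou5f1 had 6.72, 6.15 and 6.13 on the WT_EC arrays and 11.94, 12.01 and 11.96 on the ESC arrays (log2 difference 5.63, SE 0.172, adjusted p = 1.33e-05), and Sox2 had 6.24, 6.06 and 6.07 on the WT_EC arrays and 10.98, 11.35 and 10.75 on the ESC arrays (log2 difference 4.90, SE 0.166, adjusted p = 1.77e-05). All ESC arrays lay more than 4 log2 units above all WT_EC arrays in these transcription factors. Dppa5a, an RNA binding protein of early embryos, was 42.7-fold higher, the F-box gene Fbxo15 42.8-fold and the methylcytosine oxidase Tet1 37.3-fold. Otx2, a homeobox gene that marks the passage from naive to primed pluripotency, had 6.08, 5.90 and 5.88 on the WT_EC arrays and 11.59, 11.59 and 11.57 on the ESC arrays (log2 difference 5.63, SE 0.0961, adjusted p = 2.05e-06), with the groups as far apart as in the naive factors. Not all members followed. Klf4, a reprogramming factor, had 8.85, 9.56 and 9.69 on the WT_EC arrays and 9.31, 9.29 and 9.37 on the ESC arrays and was not called (log2 difference -0.04, SE 0.223, adjusted p = 0.898), and its groups overlapped. Without WT_EC 1 Klf4 passed the test in the lower direction (adjusted p = 0.0431). That array also decided the lower count, which was 2 without it, as it was with the housekeeping shift. Stat3, the effector of LIF, was the member called lower, with 11.62, 11.64 and 11.55 on the WT_EC arrays and 10.49, 10.43 and 10.53 on the ESC arrays (log2 difference -1.12, SE 0.0869, adjusted p = 0.000286).

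The promoter of Nanog is shown because it carries the joint Oct4 and Sox2 element. The 250 bases before the annotated start (RefSeq, GRCm38.p6, chr6:122707239-122707488, plus strand) are printed 5′ to 3′, with the match in capitals.
Nanog promoter: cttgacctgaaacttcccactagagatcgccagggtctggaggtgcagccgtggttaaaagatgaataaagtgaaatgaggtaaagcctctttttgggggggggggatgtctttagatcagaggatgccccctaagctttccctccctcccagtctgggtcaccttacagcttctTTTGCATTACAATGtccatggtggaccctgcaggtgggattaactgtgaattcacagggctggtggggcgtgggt
The motif CATTGT, any base, ATGCAAA was searched on both strands and matched on the reverse complement with its first base 75 bases before the start. It holds the octamer part ATGCAAA. In windows from 250 bases before to 50 after the start, the joint motif was found in 1 of 15614 genes (0.0064%), which was Nanog. Nanog was shown for carrying that motif, so this count is no test. ATGCAAA alone was found in 3 of 32 windows of the pluripotency list (9.38%) and in 642 of all 15614 (4.11%). Among genes called at least 4-fold, ATGCAAA was in 4.83% of windows of the higher and 5.61% of the lower. Genes not called had it in 4.64%, so its share did not follow the direction. A match is a description of the letters and says nothing of binding. All motifs in this text were chosen with these data in view.

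Within the Myc family, Myc was lower and Mycn higher in ESC. Myc, the growth-promoting transcription factor, had 11.06, 10.58 and 10.68 on the WT_EC arrays and 8.43, 8.64 and 8.53 on the ESC arrays (log2 difference -2.24, SE 0.149, adjusted p = 0.000165). Mycn, its close relative in embryonic cells, had 7.67, 7.96 and 7.80 on the WT_EC arrays and 10.86, 11.04 and 10.72 on the ESC arrays (log2 difference 3.06, SE 0.127, adjusted p = 3.18e-05). The arrays did not overlap in either gene, and the directions were opposite. The shares of all genes were 19.1% higher and 12.3% lower. Of 11 measured members of the family, 2 were called higher, 3 lower and 6 were not called, and without WT_EC 1 the first count was 4. Besides Mycn, the higher member was Mga (log2 difference 1.26, SE 0.0826, adjusted p = 0.00016), a Max partner that represses germ line genes. Max, the common partner, had 10.43, 10.27 and 10.53 on the WT_EC arrays and 10.58, 10.48 and 10.76 on the ESC arrays and was not called (log2 difference 0.20, SE 0.12, adjusted p = 0.26), with overlapping groups. The antagonists Mxd4 and Mxd1 were lower by 2.29-fold and 1.44-fold. Mycl was not called (log2 difference 0.58, SE 0.2, adjusted p = 0.0712).

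In LIF and STAT3 signalling, 3 of 18 genes were called higher, 7 lower and 8 were not called (median -0.60). With the housekeeping shift the counts were 1 and 8. The lower members included the receptor chain Il6ra, the kinases Jak1 and Jak2, and Stat3, given above. Jak1 had 11.71, 11.75 and 11.66 on the WT_EC arrays and 10.58, 10.56 and 10.53 on the ESC arrays (log2 difference -1.15, SE 0.0846, adjusted p = 0.00024). The groups did not overlap. Il6ra, the interleukin 6 receptor, was 2.92-fold lower (log2 difference -1.54, SE 0.24, adjusted p = 0.00404). Jak2 was also lower (log2 difference -1.43, SE 0.301, adjusted p = 0.0131), a call lost without ESC 2 (adjusted p = 0.0575). The LIF receptor Lifr had 8.36, 10.56 and 9.83 on the WT_EC arrays and 10.39, 10.35 and 10.29 on the ESC arrays and was not called (log2 difference 0.76, SE 0.518, adjusted p = 0.307). WT_EC 1 was the lowest array, and WT_EC 2 and 3 lay on either side of the ESC arrays. Lif itself had 10.76, 7.35 and 8.08 on WT_EC 1, 2 and 3 and 7.22, 7.37 and 7.14 on ESC 1, 2 and 3, so only WT_EC 1 stood well above the rest, and it was not called (log2 difference -1.48, SE 0.826, adjusted p = 0.222). Tfcp2l1, a target of Stat3 and a naive factor, was 5.88-fold higher (log2 difference 2.56, SE 0.254, adjusted p = 0.00071). The lower count of the list was 4 without ESC 2, and the higher count was 1 without ESC 1 or ESC 2.

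Of 40 genes of Nodal, TGF-beta and BMP signalling 7 were called higher, 15 lower and 18 were not called (median -0.59). Nodal, the ligand, had 7.62, 7.18 and 7.37 on the WT_EC arrays and 9.71, 9.95 and 9.64 on the ESC arrays (log2 difference 2.37, SE 0.149, adjusted p = 0.000139), and its antagonists Lefty1 (log2 difference 2.86, SE 0.149, adjusted p = 7.2e-05) and Lefty2 (log2 difference 3.15, SE 0.0967, adjusted p = 1.33e-05) were higher too, as was Tdgf1, given above. Gdf3, a Nodal-like ligand, was 10.3-fold higher (log2 difference 3.36, SE 0.15, adjusted p = 4.18e-05). The lower members included receptors and ligands of TGF-beta and BMP. Tgfbr2 had 10.80, 11.36 and 11.31 on the WT_EC arrays and 8.91, 8.79 and 9.0 on the ESC arrays (log2 difference -2.26, SE 0.171, adjusted p = 0.000262). Tgfbr3, the co-receptor betaglycan, was 5.41-fold lower (log2 difference -2.44, SE 0.184, adjusted p = 0.000258), and the ligand Bmp6 5.03-fold (log2 difference -2.33, SE 0.19, adjusted p = 0.000334). Id3, a direct target of BMP signalling, had 9.41, 11.22 and 11.09 on the WT_EC arrays and 7.82, 7.97 and 7.54 on the ESC arrays (log2 difference -2.80, SE 0.48, adjusted p = 0.00596). WT_EC 1 was the lowest WT_EC array in Id3 and still lay above every ESC array.

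In FGF and ERK signalling 7 of 25 genes were called higher, 8 lower and 10 were not called (median 0.12, and -0.12 with the housekeeping shift). Fgf4, the autocrine ligand of stem cells, had 7.82, 7.66 and 7.60 on the WT_EC arrays and 11.07, 11.20 and 10.91 on the ESC arrays (log2 difference 3.37, SE 0.117, adjusted p = 1.88e-05). The ligands Fgf15 (log2 difference 1.96, SE 0.12, adjusted p = 0.000127) and Fgf5 (log2 difference 1.02, SE 0.134, adjusted p = 0.00207) and the transcription factor Etv5 (log2 difference 2.46, SE 0.0958, adjusted p = 2.59e-05) were also higher. Fgf2, the matrix-bound ligand, went the other way with 12.14, 10.92 and 12.25 on the WT_EC arrays and 8.88, 8.68 and 8.89 on the ESC arrays (log2 difference -2.95, SE 0.351, adjusted p = 0.0014). Its WT_EC arrays all lay above its ESC arrays. Fgf7 was 3.17-fold lower (log2 difference -1.67, SE 0.203, adjusted p = 0.00154), and so was the phosphatase gene Dusp5, at 2.86-fold (log2 difference -1.52, SE 0.294, adjusted p = 0.00954). The immediate early gene Egr1 was lower (log2 difference -1.91, SE 0.424, adjusted p = 0.0163), and the call ended without any of the ESC arrays (adjusted p from 0.0524 to 0.0657). The lower count of the list was then 5.

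For Wnt signalling the split depended on scaling, with 7 of 35 genes called higher and 6 lower as deposited and 4 higher and 10 lower with the housekeeping shift. Those counts lay near the shares of all genes, 19.1% higher and 12.3% lower as deposited and 13.6% and 32.6% with the shift. Lef1, a transcription factor of the pathway, had 7.33, 6.89 and 6.90 on the WT_EC arrays and 9.30, 9.15 and 9.59 on the ESC arrays (log2 difference 2.31, SE 0.175, adjusted p = 0.000262). Lgr4, a receptor of the R-spondins, was 3.11-fold higher (log2 difference 1.64, SE 0.319, adjusted p = 0.00974), Dkk2, a secreted modulator, 2.11-fold (log2 difference 1.08, SE 0.141, adjusted p = 0.00205) and the destruction complex gene Apc 1.88-fold (log2 difference 0.91, SE 0.146, adjusted p = 0.00458). Fzd1, a Wnt receptor, had 10.45, 10.56 and 10.51 on the WT_EC arrays and 8.21, 8.39 and 8.06 on the ESC arrays (log2 difference -2.28, SE 0.113, adjusted p = 6.06e-05). Wnt5a, a ligand of the noncanonical branch, was 1.73-fold lower (log2 difference -0.79, SE 0.131, adjusted p = 0.00516). Leaving out any ESC array reduced the lower count to 3.

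Epithelial junction genes were higher in ESC almost as a body. Of 25 genes 22 were called higher, 0 lower and 3 were not called (median 1.79). Epcam, an adhesion molecule of epithelia and stem cells, had 6.60, 6.28 and 6.59 on the WT_EC arrays and 11.97, 11.71 and 11.90 on the ESC arrays (log2 difference 5.37, SE 0.132, adjusted p = 7.03e-06). Cdh1, which encodes E-cadherin, had 7.27, 7.77 and 7.29 on the WT_EC arrays and 11.80, 11.73 and 11.78 on the ESC arrays (log2 difference 4.32, SE 0.154, adjusted p = 1.99e-05). In both genes every WT_EC array lay below the median of all values. The tight junction gene Cldn6 was 19-fold higher (log2 difference 4.25, SE 0.158, adjusted p = 2.21e-05) and Cldn4 4.63-fold (log2 difference 2.21, SE 0.172, adjusted p = 0.000286). Esrp1, which directs epithelial splicing, was 29.2-fold higher (log2 difference 4.87, SE 0.139, adjusted p = 1.13e-05). Cldn3 had 8.33, 7.73 and 8.13 on the WT_EC arrays and 8.24, 8.11 and 8.09 on the ESC arrays and was not called (log2 difference 0.08, SE 0.166, adjusted p = 0.725).

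The mesenchymal counterpart moved the other way, with 0 of 20 genes called higher, 13 lower and 7 not called (median -1.05). Cdh2, which encodes N-cadherin, had 12.11, 12.38 and 11.46 on the WT_EC arrays and 9.11, 8.93 and 9.13 on the ESC arrays (log2 difference -2.93, SE 0.236, adjusted p = 0.000322). Together with Cdh1 it gave opposite cadherin patterns in the 2 groups, although Cdh2 stayed above 8.04 on the ESC arrays. The repressors of E-cadherin Zeb2 (log2 difference -2.42, SE 0.159, adjusted p = 0.00016) and Zeb1 (log2 difference -1.15, SE 0.106, adjusted p = 0.000521) were lower, as was Anxa1, an annexin of inflammation (log2 difference -2.82, SE 0.129, adjusted p = 4.42e-05). Vim, which encodes vimentin, had 13.58, 13.37 and 13.50 on the WT_EC arrays and 13.11, 13.15 and 13.08 on the ESC arrays. This gene was called lower (log2 difference -0.37, SE 0.0963, adjusted p = 0.0293) but not without WT_EC 3 or any ESC array (adjusted p from 0.0669 to 0.117), and it was bright in both groups.

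Collagen and matrix genes had 0 of 34 members called higher, 16 lower and 18 not called (median -1.0). The chains of basement membrane collagen had the largest decreases. Col4a1 had 10.34, 10.05 and 11.01 on the WT_EC arrays and 8.31, 8.29 and 8.31 on the ESC arrays (log2 difference -2.16, SE 0.239, adjusted p = 0.00105) and Col4a2, its partner chain, was 4.39-fold lower (log2 difference -2.14, SE 0.239, adjusted p = 0.0011). The interstitial collagen gene Col3a1 was 4.03-fold lower (log2 difference -2.01, SE 0.353, adjusted p = 0.00649), and Col1a1 had 11.74, 12.39 and 12.60 on the WT_EC arrays and 10.76, 11.05 and 10.56 on the ESC arrays (log2 difference -1.46, SE 0.247, adjusted p = 0.00575). The ESC arrays thus lay below WT_EC in fibrillar collagens and yet between 10.56 and 11.05 in Col1a1, well above the median. The metalloproteinase inhibitor Timp3 was 4.24-fold lower (log2 difference -2.08, SE 0.135, adjusted p = 0.000154). Thbs1 and Thbs2, which encode thrombospondins, were not called. Thbs1 had 13.66, 12.77 and 13.43 on the WT_EC arrays and 13.04, 13.03 and 12.95 on the ESC arrays, and it passed in the lower direction without WT_EC 2 (adjusted p = 0.0135).

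In the list of caveolae and the actin cytoskeleton 0 of 27 genes were called higher, 15 lower and 12 were not called (median -0.72). The largest decreases were those of the caveolar coat genes Cavin3 and Cavin2. Cavin3 had 11.16, 11.82 and 11.82 on the WT_EC arrays and 8.58, 8.86 and 8.76 on the ESC arrays (log2 difference -2.87, SE 0.203, adjusted p = 0.000214), Cavin2 was 5.54-fold lower (log2 difference -2.47, SE 0.386, adjusted p = 0.00414) and Cavin1 2.91-fold (log2 difference -1.54, SE 0.1, adjusted p = 0.000154). Cav1, the caveolin itself, had 11.63, 11.84 and 12.05 on the WT_EC arrays and 10.93, 10.75 and 10.92 on the ESC arrays (log2 difference -0.97, SE 0.134, adjusted p = 0.00252). Groups did not overlap in any of the 4 genes, as in 51.5% of all genes. The actin cross-linker Flnc was 3.11-fold lower (log2 difference -1.64, SE 0.152, adjusted p = 0.00054). The element GGAATG, the core of TEAD binding sites, was present in 12 of 23 promoter windows of this list (52.2%) and in 13.1% of all windows.

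Among 26 integrins and adaptors 1 was called higher, 8 lower and 17 were not called (median -0.70). Itga6, the laminin receptor chain used by stem cells, had 9.95, 9.25 and 9.45 on the WT_EC arrays and 11.59, 11.45 and 11.65 on the ESC arrays (log2 difference 2.01, SE 0.19, adjusted p = 0.000587). The alpha V chain gene Itgav was 2.14-fold lower (log2 difference -1.10, SE 0.194, adjusted p = 0.00662) and Itgb1 1.67-fold (log2 difference -0.74, SE 0.114, adjusted p = 0.00392). The adaptors Parva (log2 difference -1.49, SE 0.0898, adjusted p = 0.000119), Tln1 (log2 difference -1.34, SE 0.105, adjusted p = 0.000293) and Zyx (log2 difference -1.34, SE 0.166, adjusted p = 0.00163) were lower too. Itga5 had 12.73, 11.16 and 11.32 on the WT_EC arrays and 10.63, 10.69 and 10.58 on the ESC arrays and was not called (log2 difference -1.10, SE 0.405, adjusted p = 0.0866), though it passed without WT_EC 1 (adjusted p = 0.00458) or without WT_EC 2 (adjusted p = 0.0436). Without WT_EC 3 the higher count of the list was 3.

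Endothelial identity genes were not uniformly higher in the group labelled endothelial. Of 44 genes 6 were called higher in ESC, 10 lower and 28 were not called (median -0.14), and 21 had low signal in both groups. The shares of all genes were 19.1% higher and 12.3% lower. Pecam1, the junction protein of endothelium that mouse stem cells also carry, had 6.80, 6.46 and 7.56 on the WT_EC arrays and 8.87, 8.87 and 8.84 on the ESC arrays (log2 difference 1.92, SE 0.271, adjusted p = 0.00275). Tek, the angiopoietin receptor, had 6.57, 6.47 and 7.22 on the WT_EC arrays and 8.60, 8.45 and 8.97 on the ESC arrays (log2 difference 1.92, SE 0.237, adjusted p = 0.0016). Both were higher on every ESC array than on any WT_EC array. Mcam, an adhesion molecule of endothelium and pericytes, was 4.52-fold higher in ESC (log2 difference 2.18, SE 0.203, adjusted p = 0.00055), and Hey1, a Notch target, 1.99-fold (log2 difference 0.99, SE 0.102, adjusted p = 0.000791). Cdh5, which encodes VE-cadherin, had 9.10, 6.85 and 9.52 on the WT_EC arrays and 7.02, 6.96 and 6.94 on the ESC arrays. WT_EC 2 lay at the level of the ESC arrays and WT_EC 1 and 3 above them, and Cdh5 was not called (log2 difference -1.52, SE 0.661, adjusted p = 0.134). Without WT_EC 2 it passed (adjusted p = 0.000334).

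Some vascular receptor genes were lower in ESC. Kdr, the main VEGF receptor, had 8.51, 8.61 and 9.35 on the WT_EC arrays and 6.98, 6.84 and 6.91 on the ESC arrays (log2 difference -1.91, SE 0.228, adjusted p = 0.00141), and the adrenomedullin receptor gene Calcrl had 10.15, 9.79 and 9.34 on the WT_EC arrays and 7.75, 7.82 and 7.86 on the ESC arrays (log2 difference -1.95, SE 0.204, adjusted p = 0.000836). Groups did not overlap in either. The surface sialomucin Cd34 (log2 difference -2.55, SE 0.522, adjusted p = 0.0117) and the co-receptor Nrp1 (log2 difference -2.20, SE 0.462, adjusted p = 0.0131) were lower as well. The call of Cd34 was lost without ESC 2 (adjusted p = 0.052), and that of Nrp1 without ESC 1 (adjusted p = 0.0512) or ESC 2 (adjusted p = 0.0564). Of 8 lymphatic endothelial genes 0 were called higher and 2 lower, Nr2f2 (log2 difference -1.57, SE 0.302, adjusted p = 0.00931) and Pdpn (log2 difference -1.22, SE 0.272, adjusted p = 0.0168), which fibroblasts and mesothelium also express. The call of Pdpn ended without any of the ESC arrays (adjusted p from 0.0588 to 0.0669), which left 1 gene called lower, and without WT_EC 3 the higher count was 2. Lyve1, a receptor for hyaluronan, had 7.75, 7.10 and 10.19 on the WT_EC arrays and 6.87, 6.91 and 6.93 on the ESC arrays and was not called (log2 difference -1.45, SE 0.748, adjusted p = 0.194), with WT_EC 3 alone far above the others.

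All 9 measured mesothelium genes were called lower in ESC (median -3.44). Mesothelium lines the body cavities and covers the lung. Wt1, its transcription factor, had 10.59, 11.15 and 10.67 on the WT_EC arrays and 7.63, 7.67 and 7.87 on the ESC arrays (log2 difference -3.08, SE 0.171, adjusted p = 8.86e-05). Msln, which encodes mesothelin, had 11.17, 11.50 and 12.35 on the WT_EC arrays and 7.85, 7.90 and 7.78 on the ESC arrays (log2 difference -3.83, SE 0.29, adjusted p = 0.000262). Upk3b (log2 difference -4.19, SE 0.365, adjusted p = 0.000425), Upk1b (log2 difference -4.88, SE 0.355, adjusted p = 0.000233) and Gpm6a (log2 difference -4.96, SE 0.483, adjusted p = 0.000653) were lower by more than 16-fold. All 9 genes were separated between the groups, beside 51.5% of all genes. Their higher signals were on all 3 WT_EC arrays, not on 1 of them.

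In the fibroblast and smooth muscle list 1 of 30 genes was called higher, 12 lower and 17 were not called (median -0.79), and 19 were lower with the housekeeping shift. Dcn, the matrix proteoglycan decorin, had 13.34, 13.65 and 13.43 on the WT_EC arrays and 10.94, 10.67 and 11.18 on the ESC arrays (log2 difference -2.55, SE 0.161, adjusted p = 0.000141). Every ESC array was below every WT_EC array and still above the median of all values. Pdgfrb, a mesenchymal growth factor receptor, had 10.86, 11.94 and 12.05 on the WT_EC arrays and 9.61, 9.52 and 9.58 on the ESC arrays (log2 difference -2.05, SE 0.312, adjusted p = 0.00371), and the matrix gene Dpt had 8.40, 7.44 and 9.57 on the WT_EC arrays and 6.07, 5.89 and 5.91 on the ESC arrays (log2 difference -2.51, SE 0.496, adjusted p = 0.0104). Cnn1, a calponin of smooth muscle, was the member called higher, with 9.08, 7.34 and 8.18 on the WT_EC arrays and 10.17, 10.07 and 10.35 on the ESC arrays (log2 difference 2.0, SE 0.411, adjusted p = 0.0121), a call lost without ESC 3 (adjusted p = 0.0525). Without WT_EC 3 the higher count was 4. The ESC arrays therefore carried mesenchymal genes at high signal beside the pluripotency genes, and which cells carried them was not tested.

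Lung epithelium genes had 0 of 14 members called higher and 2 lower, Abca3 (log2 difference -1.0, SE 0.219, adjusted p = 0.0155) and Sftpb (log2 difference -0.37, SE 0.0957, adjusted p = 0.0275). Both calls ended without any of the ESC arrays (adjusted p from 0.0546 to 0.117), that of Sftpb also without WT_EC 3 (adjusted p = 0.0541), and the housekeeping shift made the lower count 11. Of all genes 12.3% were called lower as deposited and 32.6% with the shift, so the deposited share of the list lay near that of all genes. The surfactant gene Sftpc had 6.59, 6.39 and 7.86 on the WT_EC arrays and 6.41, 6.26 and 6.42 on the ESC arrays, below 8.04 on every array. Of 23 immune cell genes 1 was called higher, 1 lower and 21 were not called, or 0 and 4 with the housekeeping shift. Cd14, the lipopolysaccharide co-receptor, was the lower one, with 8.48, 10.20 and 8.73 on the WT_EC arrays and 6.62, 6.53 and 6.48 on the ESC arrays (log2 difference -2.60, SE 0.434, adjusted p = 0.00541). Adgre1, the macrophage marker F4/80, had 6.90, 5.53 and 10.07 on the WT_EC arrays and 5.69, 5.62 and 5.77 on the ESC arrays and was not called (log2 difference -1.81, SE 1.07, adjusted p = 0.248), with WT_EC 3 alone high. Cd74, the invariant chain of antigen presenting cells, was the higher one (log2 difference 0.41, SE 0.108, adjusted p = 0.0295), a call that ended without WT_EC 2 or any of the ESC arrays (adjusted p from 0.0528 to 0.112). The lower count was 2 without WT_EC 1 and 6 without WT_EC 2, and without WT_EC 3 the counts were 3 higher and 3 lower.

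Chromatin genes were mostly higher in ESC. In the DNA methylation list 8 of 15 genes were called higher, 3 lower and 4 were not called (median 0.84). Dnmt3b, a de novo methyltransferase, had 7.47, 7.41 and 7.33 on the WT_EC arrays and 10.49, 10.70 and 10.55 on the ESC arrays (log2 difference 3.17, SE 0.1, adjusted p = 1.39e-05), and its cofactor Dnmt3l had 7.24, 6.39 and 6.50 on the WT_EC arrays and 10.52, 10.58 and 10.64 on the ESC arrays (log2 difference 3.87, SE 0.227, adjusted p = 0.000109). The ESC arrays were above every WT_EC array in both. Dnmt1, which copies methylation after replication, was 2.31-fold higher (log2 difference 1.21, SE 0.207, adjusted p = 0.00597), and its partner Uhrf1 4.19-fold (log2 difference 2.07, SE 0.288, adjusted p = 0.0026). The oxidases split, with Tet1 higher as given above and Tet3 lower (log2 difference -1.37, SE 0.137, adjusted p = 0.000712). The readers Mbd1 (log2 difference -1.68, SE 0.217, adjusted p = 0.00195) and Mbd2 (log2 difference -1.45, SE 0.112, adjusted p = 0.000277) were lower.

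Polycomb and Trithorax genes had 22 of 32 members called higher, 3 lower and 7 not called (median 1.11), or 19 and 6 with the housekeeping shift. Leaving out WT_EC 1 gave 5 lower genes and leaving out ESC 1 gave 1. The core of the repressive complex that methylates histone H3 was higher, with 10.61, 10.27 and 10.49 on the WT_EC arrays and 12.07, 11.90 and 12.06 on the ESC arrays for the methyltransferase Ezh2 (log2 difference 1.55, SE 0.122, adjusted p = 0.000293). Eed (log2 difference 1.34, SE 0.197, adjusted p = 0.00332) and Suz12 (log2 difference 1.38, SE 0.115, adjusted p = 0.000361), its partners, were higher too. Accessory subunits showed larger differences, with Jarid2 at 6.51-fold (log2 difference 2.70, SE 0.199, adjusted p = 0.00024) and Mtf2 at 5.85-fold (log2 difference 2.55, SE 0.175, adjusted p = 0.000188). The remodeller Chd7 had 8.33, 8.73 and 9.39 on the WT_EC arrays and 11.76, 11.56 and 11.90 on the ESC arrays (log2 difference 2.92, SE 0.269, adjusted p = 0.000532). Bmi1, a subunit of the other Polycomb complex, was the most reduced, with 9.62, 10.38 and 9.81 on the WT_EC arrays and 8.77, 8.42 and 8.88 on the ESC arrays (log2 difference -1.25, SE 0.227, adjusted p = 0.00745).

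Retroelement silencing genes had 15 of 19 members called higher and 0 lower (median 1.18). Trim28, the corepressor of zinc finger proteins, had 10.72, 11.01 and 10.44 on the WT_EC arrays and 12.10, 12.30 and 12.02 on the ESC arrays (log2 difference 1.41, SE 0.166, adjusted p = 0.00134), and its partner methyltransferase Setdb1 was 2.39-fold higher (log2 difference 1.26, SE 0.144, adjusted p = 0.0012). Morc1 (log2 difference 3.72, SE 0.125, adjusted p = 1.74e-05), the remodeller Hells (log2 difference 3.18, SE 0.158, adjusted p = 6.06e-05) and Rif1 (log2 difference 2.78, SE 0.215, adjusted p = 0.000284) showed larger differences. Zfp809, which recognises a retroviral primer site, had 11.14, 10.74 and 11.45 on the WT_EC arrays and 11.01, 10.73 and 11.18 on the ESC arrays and was not called (log2 difference -0.14, SE 0.21, adjusted p = 0.637), with overlapping groups.

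Of 25 germ line genes 17 were called higher and 0 lower (median 1.54). Sycp3, of the meiotic synaptonemal complex, had 4.58, 4.76 and 4.78 on the WT_EC arrays and 10.29, 10.38 and 10.61 on the ESC arrays (log2 difference 5.72, SE 0.121, adjusted p = 3.92e-06). Ddx4, the germ cell helicase, had 5.13, 5.91 and 5.26 on the WT_EC arrays and 9.83, 9.56 and 9.92 on the ESC arrays (log2 difference 4.34, SE 0.225, adjusted p = 7.13e-05), and Mael, of the piRNA pathway, had 5.08, 5.07 and 5.34 on the WT_EC arrays and 9.67, 9.66 and 9.57 on the ESC arrays (log2 difference 4.47, SE 0.111, adjusted p = 7.03e-06). In these genes the WT_EC arrays stood far below the median of all values. Stag3, a meiotic cohesin, was 10.1-fold higher (log2 difference 3.33, SE 0.144, adjusted p = 3.78e-05) and Dazl, an RNA binding protein of germ cells, 5.17-fold (log2 difference 2.37, SE 0.16, adjusted p = 0.000177).

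The Sycp3 promoter is shown because it holds the E-box CACGTG, the site of the Max and Mga complexes, in duplicate. Its 250 bases before the start lie at chr10:88459337-88459586 of GRCm38.p6, plus strand, with matches in capitals.
Sycp3 promoter: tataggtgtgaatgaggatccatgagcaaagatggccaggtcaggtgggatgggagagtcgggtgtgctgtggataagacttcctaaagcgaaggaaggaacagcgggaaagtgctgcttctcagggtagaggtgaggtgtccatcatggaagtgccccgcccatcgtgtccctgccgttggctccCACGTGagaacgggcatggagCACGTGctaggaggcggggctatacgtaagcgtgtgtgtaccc
The matches begin 64 and 43 bases before the start, and the motif reads the same on both strands. CACGTG was found in 11 of 20 windows of the germ line list (55%) and in 1309 of all 15614 (8.38%). It was in 10.2% of windows of genes called at least 4-fold higher, in 5.1% of those called at least 4-fold lower and in 7.58% of those not called.

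Imprinted genes are read, in some tissues at least, from the chromosome of only the mother or the father. The arrays do not tell the parental copies apart. The list had 9 of 24 members called higher, 3 lower and 12 not called (median 0.52). Phlda2, a growth restraint of the placenta, had 7.44, 6.87 and 7.11 on the WT_EC arrays and 11.42, 11.54 and 11.41 on the ESC arrays (log2 difference 4.32, SE 0.156, adjusted p = 2.01e-05). Zdbf2 was 13-fold higher (log2 difference 3.71, SE 0.289, adjusted p = 0.000287), Mest 10.8-fold (log2 difference 3.43, SE 0.566, adjusted p = 0.00513) and Peg10, a retrotransposon-derived gene, 5-fold (log2 difference 2.32, SE 0.297, adjusted p = 0.00187). Peg3 had 7.10, 9.86 and 10.06 on the WT_EC arrays and 10.55, 10.36 and 10.59 on the ESC arrays and Igf2 had 8.25, 11.92 and 8.69 on the WT_EC arrays and 11.33, 11.13 and 11.26 on the ESC arrays, and neither was called as deposited. In Igf2 the array WT_EC 2 was as high as ESC while WT_EC 1 and 3 were low. Without WT_EC 2 Igf2 passed (adjusted p = 0.00028), and without WT_EC 1 Peg3 did (adjusted p = 0.0171). The lower members were Dcn, given above, Xist, given below, and Sgce (log2 difference -1.09, SE 0.226, adjusted p = 0.0124), whose call ended without ESC 2 (adjusted p = 0.0518). With the housekeeping shift 5 were lower.

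Sex chromosome genes differed between the groups. Eif2s3y, on the Y chromosome, had 4.08, 3.98 and 4.03 on the WT_EC arrays and 9.55, 8.94 and 9.67 on the ESC arrays (log2 difference 5.36, SE 0.199, adjusted p = 2.17e-05), and Uty had 4.89, 5.02 and 4.99 on the WT_EC arrays and 9.69, 9.44 and 9.77 on the ESC arrays (log2 difference 4.67, SE 0.117, adjusted p = 7.03e-06). The WT_EC arrays were low in both, and the groups were far apart. Xist, the RNA that coats the inactive X chromosome, had 12.96, 13.32 and 13.17 on the WT_EC arrays and 11.01, 10.72 and 11.06 on the ESC arrays (log2 difference -2.22, SE 0.144, adjusted p = 0.000152). Its ESC signal was still 10.72 to 11.06, so Xist and these Y-linked genes were both high on the same ESC arrays. The other Y-linked genes of the list, Zfy1 and Kdm5d, were called higher too (1.26 and 0.64 on the log2 scale) but had low signal in both groups. Y-linked signal thus differed along with cell type, and its part in the other differences cannot be told apart.

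Hox genes give cells their address from head to tail. They had 4 of 37 members called higher, 11 lower and 22 not called (median -0.18), and 2 higher and 16 lower with the housekeeping shift. Low signal in both groups was seen in 24 of them. Hoxa5 had 9.88, 9.65 and 10.63 on the WT_EC arrays and 6.95, 7.22 and 7.67 on the ESC arrays (log2 difference -2.77, SE 0.299, adjusted p = 0.000959), with all WT_EC arrays above all ESC arrays. Hoxb2 was 2.53-fold lower (log2 difference -1.34, SE 0.0959, adjusted p = 0.000219), Hoxa3 2.44-fold (log2 difference -1.29, SE 0.173, adjusted p = 0.00226) and Hoxa4 1.8-fold (log2 difference -0.85, SE 0.133, adjusted p = 0.0041). The paralogue numbers of the 11 lower genes ran from 2 to 7. The higher genes were Hoxc8, Hoxc6, Hoxd13 and Hoxb9, and the calls of the last 3 each ended on leaving out single arrays (adjusted p from 0.0509 to 0.17). Hoxc8 had 7.39, 7.02 and 6.87 on the WT_EC arrays and 8.80, 8.21 and 9.17 on the ESC arrays (log2 difference 1.63, SE 0.266, adjusted p = 0.00488). The higher count was 2 without WT_EC 3 and 1 without ESC 1 or ESC 3, and the lower count was 7 without ESC 1 or ESC 2.

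DNA replication genes were higher in ESC nearly without exception, with 37 of 38 called higher and 0 lower (median 1.57). The helicase gene Mcm3 had 9.30, 8.51 and 8.16 on the WT_EC arrays and 10.98, 11.02 and 11.01 on the ESC arrays (log2 difference 2.35, SE 0.28, adjusted p = 0.00142), and Mcm5 had 10.50, 9.06 and 9.19 on the WT_EC arrays and 11.83, 11.85 and 11.75 on the ESC arrays (log2 difference 2.23, SE 0.373, adjusted p = 0.00546). WT_EC 1 was the highest WT_EC array in both and lay below every ESC array. Orc1, of the origin recognition complex, was 9.82-fold higher (log2 difference 3.30, SE 0.243, adjusted p = 0.000242), and Gins1, of the replicative helicase, 8.08-fold (log2 difference 3.01, SE 0.201, adjusted p = 0.000168). The member not called was the thymidylate synthase gene Tyms, named because its values were seen, with 10.14, 9.32 and 9.10 on the WT_EC arrays and 10.12, 10.01 and 10.22 on the ESC arrays. WT_EC 1 lay among the ESC arrays.

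Mitosis genes had 27 of 28 members called higher and 0 lower (median 2.12). Ccnf, a cyclin of late cell cycle, had 8.90, 7.83 and 8.75 on the WT_EC arrays and 11.80, 11.82 and 11.69 on the ESC arrays (log2 difference 3.27, SE 0.279, adjusted p = 0.000395), and the spindle checkpoint kinase Ttk had 7.49, 7.08 and 7.56 on the WT_EC arrays and 10.34, 10.41 and 10.25 on the ESC arrays (log2 difference 2.96, SE 0.148, adjusted p = 6.27e-05). Bub1 (log2 difference 2.95, SE 0.26, adjusted p = 0.000443) and the centromere gene Cenpf (log2 difference 2.89, SE 0.172, adjusted p = 0.000116) were higher by a similar factor. Cdk1, the mitotic kinase, had 11.10, 10.54 and 10.89 on the WT_EC arrays and 12.21, 12.24 and 12.19 on the ESC arrays (log2 difference 1.37, SE 0.153, adjusted p = 0.00109). WT_EC 2 was the lowest array in Ccnf, Ttk, Bub1 and Cdk1. In all 28 genes the groups did not overlap, beside 51.5% of all genes.

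The promoters of Cdc6, which loads the replicative helicase, and of Cdk1 are shown because they hold the E2F element and the elements of the late cell cycle. Both run 5′ to 3′ up to the base before the annotated start in GRCm38.p6, Cdc6 at chr11:98907901-98908150 on the plus strand and Cdk1 at chr10:69352913-69353162 on the minus strand. Cdc6, chosen for its motif and not by its values, was also higher in ESC (log2 difference 1.90, SE 0.237, adjusted p = 0.00168), a call not recomputed with arrays left out. Capitals mark TTTCCCGC in Cdc6, and TTTGAA and CCAAT in Cdk1, on either strand.
Cdc6 promoter: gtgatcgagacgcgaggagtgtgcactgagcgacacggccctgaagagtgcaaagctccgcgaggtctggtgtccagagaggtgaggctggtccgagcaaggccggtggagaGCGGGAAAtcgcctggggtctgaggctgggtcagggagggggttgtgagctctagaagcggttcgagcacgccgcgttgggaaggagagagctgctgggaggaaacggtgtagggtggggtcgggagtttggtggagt
Cdk1 promoter: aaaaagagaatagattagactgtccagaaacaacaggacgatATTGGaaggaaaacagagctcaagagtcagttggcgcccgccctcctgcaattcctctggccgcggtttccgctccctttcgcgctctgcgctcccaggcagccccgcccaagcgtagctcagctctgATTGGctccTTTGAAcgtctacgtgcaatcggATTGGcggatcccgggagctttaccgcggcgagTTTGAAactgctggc
None of these 3 motifs contains another. TTTCCCGC was found in 6 of 32 windows of the replication list (18.8%), in 5 of 21 of the repair list (23.8%) and in 1.59% of all windows. TTTGAA, the cell cycle homology region, was found in 18 of 23 mitosis windows (78.3%) and in 15.2% of all. CCAAT was found in 19 of the 23 (82.6%) and in 38.2% of all, and both motifs stood in 17 of the 23 (73.9%) against 6.12%. In Cdk1 TTTGAA begins 71 and 15 bases before the start, and CCAAT is matched 208, 80 and 48 bases before it.

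The list of G1 cyclins, inhibitors and related cell cycle genes gave a mixed picture. Of its 25 genes 9 were called higher, 3 lower and 13 were not called (median 0.27). With the housekeeping shift the counts were 6 higher and 5 lower. Ccne1, the cyclin of the G1 to S transition, had 9.98, 8.30 and 8.84 on the WT_EC arrays and 11.98, 11.87 and 12.01 on the ESC arrays (log2 difference 2.92, SE 0.401, adjusted p = 0.00247). The phosphatase genes Cdc25c (log2 difference 2.38, SE 0.157, adjusted p = 0.00016) and Cdc25a (log2 difference 2.16, SE 0.094, adjusted p = 3.92e-05) were higher. Cdkn2c, an inhibitor of the cyclin D kinases, had 7.90, 9.43 and 8.57 on the WT_EC arrays and 6.37, 6.80 and 6.56 on the ESC arrays (log2 difference -2.05, SE 0.374, adjusted p = 0.00749). Among the D cyclins Ccnd1 had 12.22, 11.09 and 11.38 on the WT_EC arrays and 11.82, 11.77 and 11.91 on the ESC arrays and was not called (log2 difference 0.27, SE 0.282, adjusted p = 0.495), except without WT_EC 1 (adjusted p = 0.0121, higher in ESC). The lower count was 5 without WT_EC 1 and 1 without any ESC array.

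DNA repair and telomere genes had 24 of 25 members called higher and 0 lower (median 2.04). Msh6, of mismatch repair, had 8.34, 8.50 and 8.19 on the WT_EC arrays and 11.51, 11.45 and 11.45 on the ESC arrays (log2 difference 3.13, SE 0.109, adjusted p = 1.88e-05). Brca1 had 8.22, 7.88 and 8.0 on the WT_EC arrays and 10.75, 10.66 and 10.70 on the ESC arrays (log2 difference 2.67, SE 0.116, adjusted p = 3.88e-05) and Brca2 was 4.12-fold higher (log2 difference 2.04, SE 0.109, adjusted p = 7.67e-05), both acting in homologous recombination. The helicase Blm (log2 difference 3.02, SE 0.2, adjusted p = 0.000165) and the Fanconi gene Fanci (log2 difference 3.0, SE 0.111, adjusted p = 2.17e-05) were higher by about as much. Of 22 p53 targets 8 were called higher, 3 lower and 11 were not called, or 5 and 4 with the housekeeping shift. Gtse1, Pmaip1 and Eda2r were higher (2.06, 1.25 and 1.36 on the log2 scale), and Fas, the death receptor, (log2 difference -1.36, SE 0.227, adjusted p = 0.00526) and the kinase Plk2 (log2 difference -1.44, SE 0.14, adjusted p = 0.000643) lower. Mdm2, the inhibitor of p53, had 11.84, 10.91 and 11.53 on the WT_EC arrays and 11.46, 11.30 and 11.59 on the ESC arrays and was not called. The higher count was 4 without ESC 1 or ESC 3, and the lower count 5 without WT_EC 1.

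Ribosome biogenesis genes had 35 of 37 members called higher and 0 lower (median 1.05), and 30 higher with the housekeeping shift. Dkc1, the pseudouridine synthase that telomerase shares, had 9.50, 9.88 and 9.68 on the WT_EC arrays and 11.60, 11.30 and 11.84 on the ESC arrays (log2 difference 1.89, SE 0.172, adjusted p = 0.000506). Nop56, of the box C/D particles, was 2.01-fold higher (log2 difference 1.01, SE 0.176, adjusted p = 0.0063), the nucleolar gene Npm1 1.61-fold (log2 difference 0.69, SE 0.106, adjusted p = 0.0038) and the methyltransferase Fbl 1.79-fold (log2 difference 0.84, SE 0.159, adjusted p = 0.00847).

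**Figure D3:**
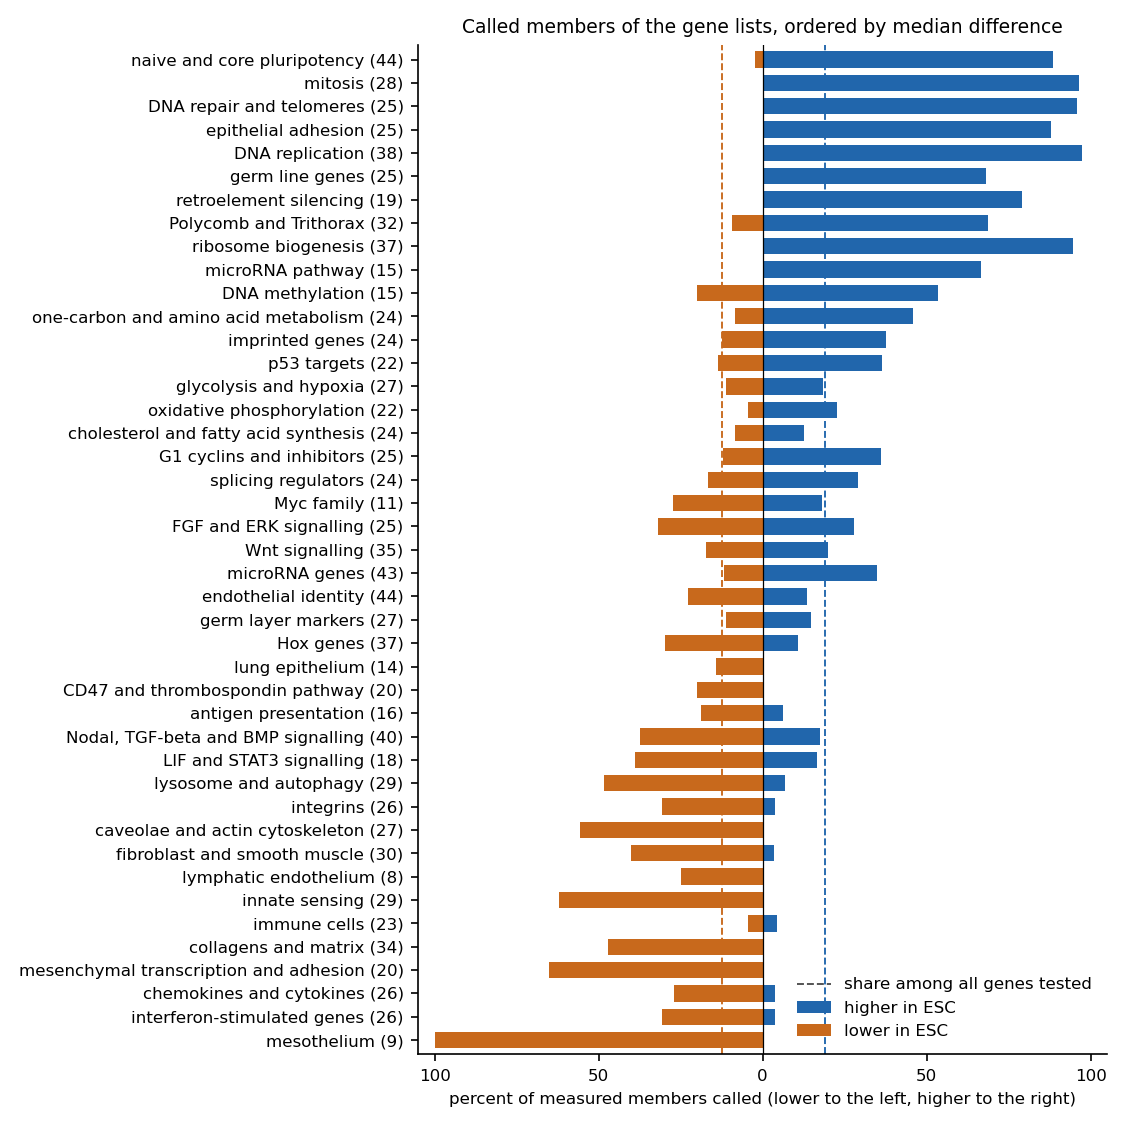
Percent of the measured members of each gene list called lower (left) and higher (right) in ESC, with the lists ordered by their median difference. Dashed lines give the shares among all 19938 genes, 12.3% lower and 19.1% higher, and the number of measured members stands beside each name. DNA replication (37 of 38), mitosis (27 of 28) and DNA repair (24 of 25) lie among the lists with the highest medians, led by pluripotency, and mesothelium (9 of 9 lower) has the lowest.

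Innate immune genes were lower in ESC. Of 29 sensing genes, meaning receptors and their adaptors, 0 were called higher, 18 lower and 11 were not called (median -0.93). Tlr4, the receptor for lipopolysaccharide, had 8.27, 9.73 and 9.52 on the WT_EC arrays and 5.85, 5.90 and 5.69 on the ESC arrays (log2 difference -3.36, SE 0.374, adjusted p = 0.00108), and Tlr3, the receptor for double-stranded RNA, had 7.97, 9.24 and 8.29 on the WT_EC arrays and 6.37, 6.21 and 6.88 on the ESC arrays (log2 difference -2.01, SE 0.351, adjusted p = 0.00633). Ifih1, the cytosolic sensor MDA5, was 7.31-fold lower (log2 difference -2.87, SE 0.432, adjusted p = 0.00355). The adaptor Sting1 had 10.84, 11.54 and 11.48 on the WT_EC arrays and 9.26, 9.13 and 9.34 on the ESC arrays (log2 difference -2.04, SE 0.203, adjusted p = 0.000706). In each of the 4 genes every WT_EC array lay above every ESC array, and 51.5% of all genes were separated in either direction. Mavs was called (log2 difference -0.44, SE 0.123, adjusted p = 0.0381) but not without WT_EC 2, WT_EC 3 or any ESC array (adjusted p from 0.0609 to 0.142).

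Interferon-stimulated genes were lower in their median (-1.22) but varied from array to array. Of 26 genes 1 was called higher, 8 lower and 17 were not called, and 13 were lower with the housekeeping shift. Their median signal was 9.65, 10.73 and 8.95 on WT_EC 1, 2 and 3 and 8.10, 8.30 and 8.75 on ESC 1, 2 and 3, so the gap between groups was of the order of the gaps within WT_EC. Ifit3 had 11.53, 12.73 and 10.41 on the WT_EC arrays and 7.49, 8.04 and 8.53 on the ESC arrays (log2 difference -3.54, SE 0.587, adjusted p = 0.00523). Trim30a, named for its spread among the ESC arrays, had 11.08, 12.22 and 10.33 on the WT_EC arrays and 7.19, 7.20 and 8.47 on the ESC arrays (log2 difference -3.59, SE 0.555, adjusted p = 0.00394). In both, WT_EC 2 was the highest array and ESC 3 the highest of its group. Irf7, the master regulator of the response, was lower (log2 difference -2.98, SE 0.741, adjusted p = 0.0247), a call lost without WT_EC 1 or any ESC array (adjusted p from 0.0549 to 0.0905). Ifitm1 was the member called higher (log2 difference 1.91, SE 0.294, adjusted p = 0.0039). The lower count of the list was 16 without WT_EC 3, 5 without WT_EC 1 and 2 without any ESC array, and the higher count 4 without WT_EC 2.

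The Ifit3 promoter is shown because it holds a pair of interferon response elements. Its 250 bases before the start lie at chr19:34583279-34583528 of GRCm38.p6, plus strand, with matches in capitals to GAAA, any 2 bases, GAAA, searched on both strands and found here on the reverse strand.
Ifit3 promoter: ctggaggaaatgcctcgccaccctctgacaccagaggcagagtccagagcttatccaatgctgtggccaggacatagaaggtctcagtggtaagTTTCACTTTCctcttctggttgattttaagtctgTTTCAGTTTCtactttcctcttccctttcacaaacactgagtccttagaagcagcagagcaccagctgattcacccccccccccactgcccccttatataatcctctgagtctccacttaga
The matches begin 156 and 122 bases before the start. The motif was found in 11 of 21 windows of the interferon list (52.4%) and in 519 of all 15614 (3.32%). It was in 9.18% of windows of genes called at least 4-fold lower in ESC and in 2.41% of those called at least 4-fold higher.

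In antigen presentation 1 of 16 genes, Psme2, was called higher, 3 lower and 12 were not called, or 0 and 7 with the housekeeping shift. The shares of all genes were 19.1% higher and 12.3% lower, or 13.6% and 32.6% with the shift. The peptide loading gene Tapbp had 10.90, 11.36 and 10.62 on the WT_EC arrays and 9.81, 9.94 and 9.75 on the ESC arrays (log2 difference -1.13, SE 0.195, adjusted p = 0.00608). B2m, the light chain of class I, was lower (log2 difference -0.57, SE 0.118, adjusted p = 0.0125), a call lost without ESC 1 (adjusted p = 0.0635) or ESC 2 (adjusted p = 0.058). Tap1 had 9.21, 10.61 and 8.60 on the WT_EC arrays and 8.62, 8.80 and 8.70 on the ESC arrays and was not called (log2 difference -0.76, SE 0.479, adjusted p = 0.272), with WT_EC 2 alone high. The higher count was 3 without WT_EC 2 and 0 without any other array, and the lower count 1 without ESC 1 or ESC 2. Among 26 chemokines and cytokines 1 was called higher, 7 lower and 18 were not called (median -1.21), or 0 and 10 with the housekeeping shift. Ccl2, which draws monocytes, had 13.09, 12.86 and 11.54 on the WT_EC arrays and 9.55, 9.90 and 10.28 on the ESC arrays (log2 difference -2.59, SE 0.425, adjusted p = 0.00507), and Csf1, the growth factor of macrophages, had 12.60, 12.05 and 11.73 on the WT_EC arrays and 9.79, 9.79 and 10.01 on the ESC arrays (log2 difference -2.26, SE 0.225, adjusted p = 0.000708). Groups did not overlap in either. The lower count was 4 without any ESC array. The higher count was 1, Pdgfb, and it was 2 without WT_EC 1 and 0 without any ESC array.

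Metabolic genes changed in part. In one-carbon and amino acid metabolism 11 of 24 genes were called higher, 2 lower and 11 were not called (median 0.72). Gldc, the glycine decarboxylase, had 6.96, 6.60 and 7.43 on the WT_EC arrays and 10.73, 10.88 and 10.54 on the ESC arrays (log2 difference 3.72, SE 0.221, adjusted p = 0.000115), and Amt, of the same glycine cleavage system, was 6.7-fold higher (log2 difference 2.74, SE 0.234, adjusted p = 0.000396). Shmt1 was 3.65-fold higher (log2 difference 1.87, SE 0.152, adjusted p = 0.000333), and the arginine transporter Slc7a3 had 9.12, 7.20 and 8.18 on the WT_EC arrays and 11.77, 11.83 and 11.92 on the ESC arrays (log2 difference 3.67, SE 0.447, adjusted p = 0.00153). Slc7a11, the cystine transporter, had 12.04, 9.81 and 7.87 on WT_EC 1, 2 and 3 and 6.52, 6.29 and 6.30 on the ESC arrays. Slc7a11 was called lower (log2 difference -3.54, SE 0.959, adjusted p = 0.0333), and the call was lost without WT_EC 2 or any ESC array (adjusted p from 0.0597 to 0.105). The lower count of the list was 1 without WT_EC 2 or ESC 2 and 0 without ESC 1 or ESC 3.

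Glycolysis and hypoxia genes had 5 of 27 members called higher, 3 lower and 19 not called (median 0.40), close to the shares of all genes. Slc2a3, a glucose transporter of early embryos, had 11.34, 9.95 and 11.54 on the WT_EC arrays and 13.26, 13.32 and 13.19 on the ESC arrays (log2 difference 2.32, SE 0.405, adjusted p = 0.0064). Pdk1, a kinase that inhibits pyruvate dehydrogenase, had 10.20, 9.44 and 8.87 on the WT_EC arrays and 11.19, 11.13 and 11.07 on the ESC arrays (log2 difference 1.63, SE 0.315, adjusted p = 0.00952). Car9, a target of hypoxia, was 4.35-fold lower (log2 difference -2.12, SE 0.263, adjusted p = 0.00164). Hk2 had 11.19, 9.60 and 9.12 on the WT_EC arrays and 10.73, 10.88 and 10.50 on the ESC arrays and was not called (log2 difference 0.73, SE 0.509, adjusted p = 0.314). Its array WT_EC 1 lay above every ESC array, and WT_EC 2 and 3 below them. WT_EC 1 was also the highest WT_EC array in the list median (11.34 beside 10.39 and 10.67). Without it 18 members were called higher, and without any ESC array 3 were. The lower count was 1 without ESC 1 or ESC 2.

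For oxidative phosphorylation 5 of 22 genes were called higher and 1 lower, or 5 and 2 with the housekeeping shift. The share called higher as deposited lay near that of all genes (19.1%), and the share called lower was below theirs (12.3%). The muscle form Cox7a1 had 7.12, 7.54 and 7.33 on the WT_EC arrays and 9.31, 9.69 and 9.29 on the ESC arrays (log2 difference 2.10, SE 0.164, adjusted p = 0.000288), and the transcription factor Nrf1 (log2 difference 0.85, SE 0.114, adjusted p = 0.00221) and Ndufs1 (log2 difference 0.77, SE 0.13, adjusted p = 0.00564) were higher. Ppargc1a, a coactivator of mitochondrial genes, was the lower one (log2 difference -0.75, SE 0.17, adjusted p = 0.0175), a call that ended without any of the ESC arrays (adjusted p from 0.0546 to 0.0746). The higher count was 9 without WT_EC 2 and 3 without any ESC array. Cholesterol and fatty acid synthesis had 3 of 24 genes called higher and 2 lower (1 and 4 with the housekeeping shift). As deposited neither share was above that of all genes. Idi1 had 8.66, 9.06 and 11.28 on the WT_EC arrays and 10.83, 10.49 and 11.16 on the ESC arrays and Hmgcs1 had 9.63, 10.21 and 11.35 on the WT_EC arrays and 11.28, 11.29 and 11.37 on the ESC arrays, with WT_EC 3 at or near the ESC level in both and WT_EC 1 and 2 below it. Neither was called, though without WT_EC 3 Idi1 (adjusted p = 0.00298) and Hmgcs1 (adjusted p = 0.0043) passed and the list had 13 higher members. Without any ESC array it had 1 higher and 1 lower. Scd1, a desaturase, was 2.03-fold lower (log2 difference -1.02, SE 0.153, adjusted p = 0.00345).

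Lysosome and autophagy genes had 2 of 29 members called higher, 14 lower and 13 not called (median -0.68). The cathepsin gene Ctsh had 10.02, 10.86 and 10.15 on the WT_EC arrays and 7.68, 7.68 and 7.46 on the ESC arrays (log2 difference -2.74, SE 0.23, adjusted p = 0.000373), and Gaa, which breaks down glycogen, had 11.21, 11.89 and 11.58 on the WT_EC arrays and 9.98, 9.89 and 9.75 on the ESC arrays (log2 difference -1.69, SE 0.185, adjusted p = 0.00103). Groups did not overlap in either. Ctsb was 1.78-fold lower (log2 difference -0.83, SE 0.116, adjusted p = 0.00266) and Lamp1, of the lysosomal membrane, 1.6-fold (log2 difference -0.68, SE 0.124, adjusted p = 0.00782). Atg5 (log2 difference 1.16, SE 0.23, adjusted p = 0.0105) and Ulk1 (log2 difference 0.88, SE 0.113, adjusted p = 0.00189), which start autophagosomes, were the higher members. Without ESC 1 or ESC 3 the lower count was 9 or 8.

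**Figure D4:**
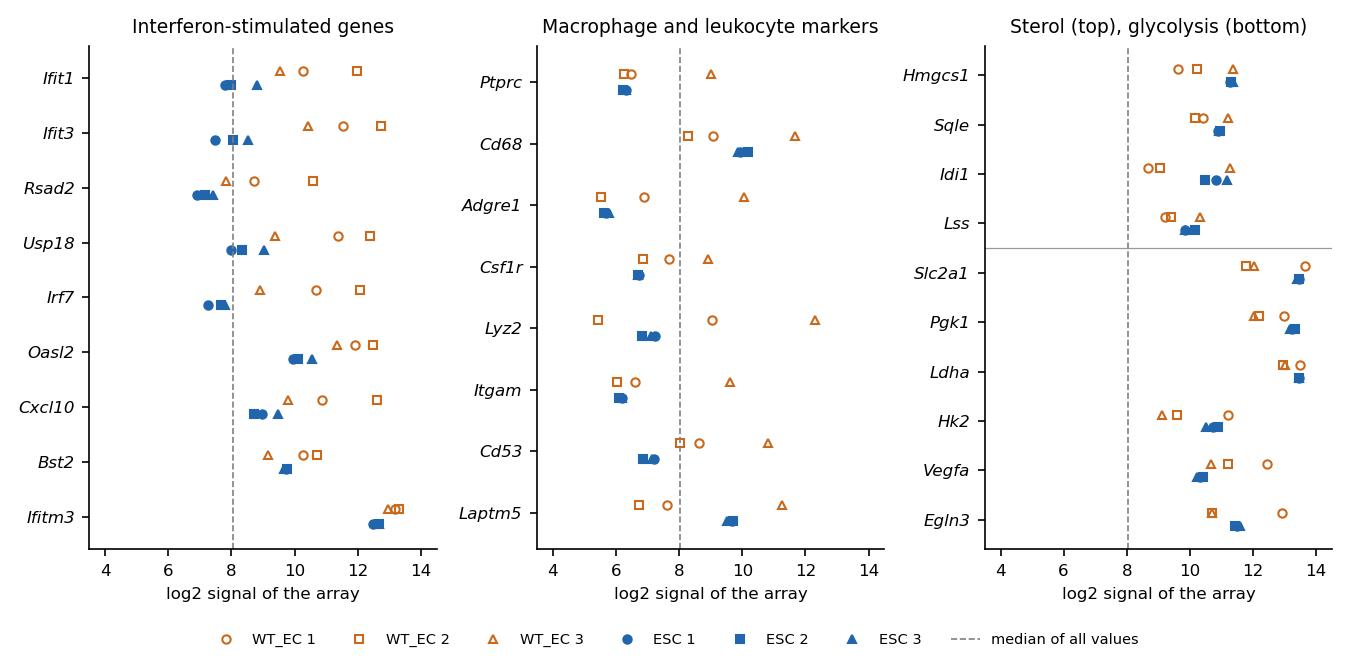
Log2 signal on each array for gene groups in which the WT_EC arrays differed from each other, with interferon genes (left), macrophage markers (middle) and sterol and glycolysis genes (right). Symbols are as in the plot of identity genes. WT_EC 2 is highest in the interferon genes, WT_EC 3 in the macrophage markers and sterol genes, and WT_EC 1 in the glycolysis genes, while the ESC arrays lie close together except for ESC 3 in some interferon genes.

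The spread between arrays of a group was largest in a few genes. In WT_EC they were led by Chil3 (SD 3.8), Gpx3 (SD 3.58), Wfdc17 (SD 3.51) and Lyz2 (SD 3.43). Chil3 and Lyz2 are macrophage products. Chil3 had 6.52, 4.89 and 12.13 on WT_EC 1, 2 and 3 and 4.83, 5.03 and 4.94 on the ESC arrays, and was not called (log2 difference -2.91, SE 1.74, adjusted p = 0.251). Gpx3, a secreted glutathione peroxidase, had 12.43, 6.51 and 12.95 on WT_EC 1, 2 and 3 and 10.92, 10.18 and 11.09 on the ESC arrays, so WT_EC 2 alone was low. Gpx3 was not called (log2 difference 0.10, SE 1.65, adjusted p = 0.967), and without WT_EC 2 the direction turned (-1.95, adjusted p = 0.0064). Among ESC arrays the largest SD was 0.734, that of Trim30a. The 8 genes named for their spread among ESC arrays also held the interferon genes Rtp4, Ifit1, Usp18 and Ifit3, and ESC 3 was the highest ESC array in each of these 5.

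MicroRNAs silence messages that match their seed, bases 2 to 8 of the mature strand. The array reads the transcript of a microRNA gene, not the mature form, and many of these probe sets had low signal. Of 43 measured microRNA genes 33 had low signal in both groups, 15 were called higher, 5 lower and 23 were not called (median -0.02). With the housekeeping shift 12 were higher and 13 lower, and without ESC 1 or ESC 2 the lower count was 3. Mature sequences of the Mir302 and Mir17 clusters, their relatives, miR-200b and let-7c are printed to show which share a seed, given in capitals. They are from RefSeq (GRCm38.p6), which matched 41 of the 43 genes. On the plus strand, miR-302b-3p lies at chr3:127545275-127545297, miR-17-5p at chr14:115043684-115043706 and let-7c-5p at chr16:77599672-77599693.
miR-302b-3p: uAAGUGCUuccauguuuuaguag
miR-302d-3p: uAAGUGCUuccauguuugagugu
miR-302c-3p: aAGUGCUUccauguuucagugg
miR-17-5p: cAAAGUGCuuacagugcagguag
miR-20a-5p: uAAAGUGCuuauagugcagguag
miR-106a-5p: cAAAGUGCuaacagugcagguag
miR-18a-5p: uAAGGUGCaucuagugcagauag
miR-19a-3p: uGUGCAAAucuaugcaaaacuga
miR-19b-3p: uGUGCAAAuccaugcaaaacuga
miR-363-3p: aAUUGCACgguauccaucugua
miR-367-3p: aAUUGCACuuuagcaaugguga
miR-200b-3p: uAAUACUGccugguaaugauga
let-7c-5p: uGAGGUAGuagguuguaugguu
In this annotation miR-302c-3p begins 1 base later than its relatives, so its bases 2 to 8 read AGUGCUU in place of AAGUGCU. The members of the miR-17 group hold AAAGUGC, which overlaps the miR-302 seed by a shift of 1 base. miR-19a and miR-19b share GUGCAAA, and miR-363 shares AUUGCAC with miR-367 of the stem cell cluster.

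The Mir302 cluster, on chromosome 3, was higher in ESC, although its genes had low signal in both groups. Mir302b had 4.17, 3.83 and 3.79 on the WT_EC arrays and 7.26, 7.03 and 7.61 on the ESC arrays (log2 difference 3.37, SE 0.182, adjusted p = 7.99e-05). Mir302c was 6.61-fold higher (log2 difference 2.72, SE 0.114, adjusted p = 3.4e-05), Mir302a 3.4-fold (log2 difference 1.76, SE 0.171, adjusted p = 0.000647) and Mir302d 3.15-fold (log2 difference 1.66, SE 0.158, adjusted p = 0.000597). All ESC arrays of these 4 genes lay above all WT_EC arrays, and 51.5% of all genes were separated in either direction. The genes of the Mir17 cluster on chromosome 14, known for driving proliferation, followed. Mir18, the precursor gene of miR-18a, had 6.47, 7.38 and 5.81 on the WT_EC arrays and 9.25, 9.38 and 8.94 on the ESC arrays (log2 difference 2.63, SE 0.382, adjusted p = 0.00304), and Mir19a had 4.88, 5.65 and 4.15 on the WT_EC arrays and 7.35, 7.36 and 7.13 on the ESC arrays (log2 difference 2.39, SE 0.359, adjusted p = 0.00355). Mirlet7c-1 went the other way with 7.14, 8.91 and 8.16 on the WT_EC arrays and 4.90, 4.84 and 4.73 on the ESC arrays (log2 difference -3.25, SE 0.416, adjusted p = 0.00188). The let-7 family marks differentiated cells, and Lin28 proteins block its processing. Other let-7 genes, named because their values were seen, were called in both directions or not called. Mirlet7a-2 was called lower (log2 difference -0.81, SE 0.243, adjusted p = 0.0466) and Mirlet7f-1 higher (log2 difference 0.69, SE 0.186, adjusted p = 0.0327), both at low signal in both groups. Both calls were not recomputed with arrays left out. Mirlet7a-1, Mirlet7d, Mirlet7e, Mirlet7f-2, Mirlet7g and Mirlet7i were not called. Mir155, of inflammation, was 1.75-fold lower (log2 difference -0.81, SE 0.109, adjusted p = 0.00228), and Mir143, of smooth muscle, 1.69-fold (log2 difference -0.76, SE 0.129, adjusted p = 0.00568).

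Of 15 genes whose products make and regulate microRNAs, 10 were called higher in ESC, 0 lower and 5 were not called (median 0.87). Lin28b had 6.0, 5.50 and 5.63 on the WT_EC arrays and 9.25, 9.03 and 9.31 on the ESC arrays (log2 difference 3.49, SE 0.159, adjusted p = 4.42e-05) and Lin28a had 7.73, 7.32 and 7.66 on the WT_EC arrays and 9.99, 10.16 and 9.77 on the ESC arrays (log2 difference 2.41, SE 0.156, adjusted p = 0.000154). The nuclease genes Drosha (log2 difference 1.36, SE 0.102, adjusted p = 0.000255) and Dicer1 (log2 difference 1.07, SE 0.162, adjusted p = 0.00367) were higher by smaller factors. Trim71, a let-7 target that keeps cells undifferentiated, was 5.15-fold higher (log2 difference 2.36, SE 0.175, adjusted p = 0.000245). The lower count was 1 without WT_EC 1, without WT_EC 2 or with the housekeeping shift.

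**Figure D5:**
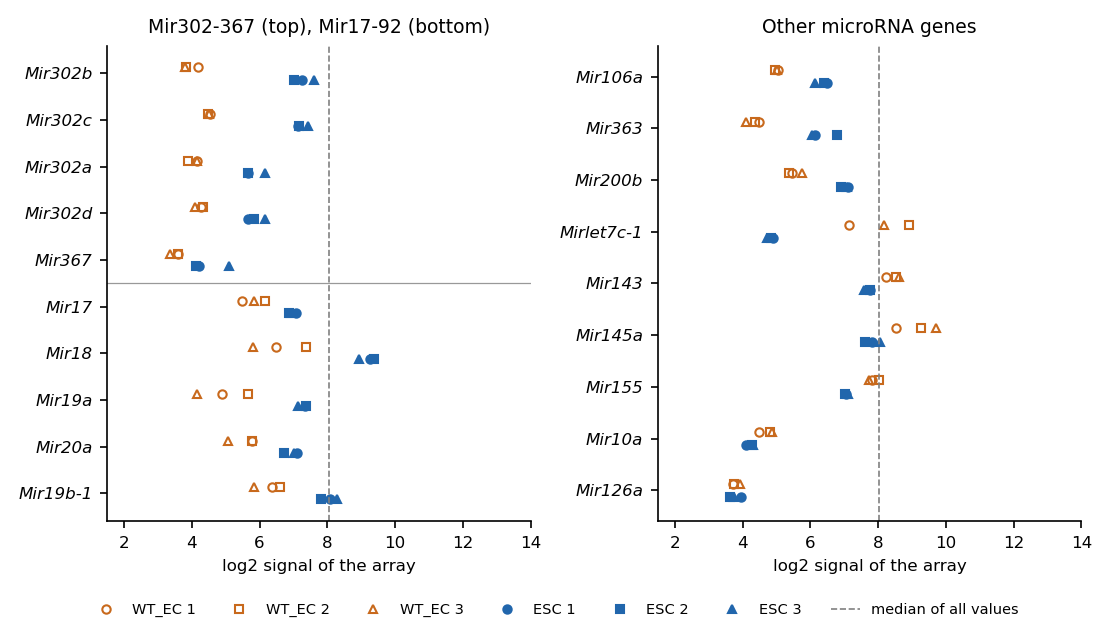
Log2 signal on each array for the genes of the Mir302 cluster and the Mir17 cluster, and of other microRNAs. Symbols are as in the plot of identity genes, and the dashed line is the median of all values. Most of these signals lie below that line. Mir302b stood at 3.79 to 4.17 in WT_EC and 7.03 to 7.61 in ESC, and Mirlet7c-1 at 7.14 to 8.91 and 4.73 to 4.90.

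CD47 is the receptor for thrombospondin-1 and the ligand of SIRP alpha, and the series was built around it. Cd47 had 12.59, 11.29 and 12.48 on the WT_EC arrays and 11.23, 10.96 and 11.33 on the ESC arrays. The lowest WT_EC array, WT_EC 2, lay just below the highest ESC array, and Cd47 was not called (log2 difference -0.95, SE 0.35, adjusted p = 0.0888, 95% interval -1.79 to -0.10). It passed without WT_EC 2 (adjusted p = 0.0014), with all 12 arrays in the fit (adjusted p = 0.0141) and with the housekeeping shift (adjusted p = 0.0388). Among all genes 19.1% were called higher and 12.3% lower, and 32.6% lower with the housekeeping shift. Of 20 genes of the CD47 and thrombospondin pathway 0 were called higher, 4 lower and 16 were not called, or 11 lower with the shift. Those called were Kdr and Itgav, given above, Sirpa (log2 difference -1.20, SE 0.123, adjusted p = 0.000777), whose product binds CD47, and Lrp1 (log2 difference -1.56, SE 0.156, adjusted p = 0.000712), an endocytic receptor of thrombospondin. Without WT_EC 1 or WT_EC 2 the lower count was 8, and the higher count was 2 without WT_EC 1.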

How the data were processed

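RNA was extracted with TRIzol, and 300 ng per sample was hybridised to Affymetrix gene arrays. The labels' protocol names a human array, while the probe sets matched a mouse gene array. The deposited values are log2 signals that the authors made with RMA in Affymetrix Expression Console 1.2.1, per the submitters' processing notes. They carry no detection calls. Of 35556 probe sets, 21789 had 1 gene symbol, 1621 had several and 12146 had none. RefSeq matched 21698 of those with 1 symbol by gene identifier, with no symbol changed, and the brightest probe set of each gene gave 19938 genes.

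ESC and WT_EC were compared on their 6 arrays with limma 3.58.1 in R 4.3.3 (lmFit and eBayes), with Benjamini-Hochberg adjustment over all genes. On simulated data with 3 draws, 62 of 100 genes changed 2-fold and 89 of 100 changed 4-fold were recovered. In these draws 36 to 52 unchanged genes were called, a larger share of the calls than the adjusted p threshold of 0.05 aims at. The cause of this excess was not tested. The simulation changed 100 genes of each size, while 6250 were called in the data, so this share cannot be carried over to them. The 45 gene lists hold 1171 symbols, of which 1073 were measured. Members and lists were chosen with earlier results of these data known. Named genes are the central pluripotency and reprogramming genes with Cd47, the 15 largest changes in each direction whose groups did not overlap, the first 4 members of each list with up to 4 called members in each direction, and the 8 most variable genes of each group. Replicate numbers did not pair the samples, since the correlations of their deviations were -0.0394, 0.0558 and 0.142. Alternatives were all 12 arrays, group weights, the replicate block, another prior, another scaling, a filter on dim genes, other uses of probe sets, and each array left out. Promoter and microRNA sequences were read from RefSeq tables of GRCm38.p6.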

Additional observations from a re-analysis of the deposited data

How the results depend on the processing

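The count of 6250 genes called, 3803 higher and 2447 lower in ESC, stayed within 1.5 times under array weights (6369), an intensity trend with a robust prior (6246), a second quantile normalisation (6220), a filter on dim genes (6231 of 16962 tested) and the mean of a gene's probe sets (6269). With all 12 arrays sharing their spread 9394 genes were called, 4329 of them lower. The housekeeping shift gave 6498 lower genes, of which 1682 were at least 2-fold lower, and turned the share of calls that were higher from 60.8% to 29.4%. Testing all 35556 probe sets gave 2730 called at least 2-fold higher, with more features tested. A test against a change of 2-fold, which asks more than a change of any size, called 860 genes, 622 higher and 238 lower, in place of 2846. Leaving out each array in turn gave 3882 to 7401 called genes, 2583 to 4259 higher and 1299 to 3195 lower. The counts were 3882, 4104 and 4075 without ESC 1, 2 and 3, and 7401, 7334 and 5679 without WT_EC 1, 2 and 3. At least 2-fold, the range was 2452 to 3172. The model fits 1 spread per gene over both groups, and the median SD was 0.0847 in ESC and 0.213 in WT_EC. A call lost without an ESC array therefore need not rest on the value of that array. Fitting the replicate number as a block, although the numbers did not pair the samples, called 5361 genes (3401 higher, 1960 lower). Of the 367 named genes, 315 to 322 kept their side of the threshold without an ESC array and 343 to 347 without a WT_EC array. Gpx3, not called on all 6 arrays, was called in the opposite direction under 1 alternative, and its difference ran from -1.95 without WT_EC 2 to 1.26 without WT_EC 3, and the cause was not tested. Other named genes that changed sign, such as Gpc3 (1.17 on all arrays, -0.53 without WT_EC 2), were called neither on all 6 arrays nor under that alternative. The files give no signal over background, so low signals, found in both groups for 8857 genes, limit what can be read from these genes.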

Other observations

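Germ layer markers were not raised together in ESC. Of 27 genes 4 were called higher, 3 lower and 20 were not called, or 3 and 14 with the housekeeping shift. As deposited neither share was above that of all genes, 19.1% higher and 12.3% lower. The endoderm and mesothelial factor Gata6 had 11.76, 12.79 and 12.52 on the WT_EC arrays and 8.74, 8.41 and 8.41 on the ESC arrays (log2 difference -3.84, SE 0.273, limma adjusted p = 0.000214). The WT_EC arrays were all above the ESC arrays. Gata4, its relative, was also lower (log2 difference -1.22, SE 0.188, adjusted p = 0.0039). Eomes, a factor of early mesoderm and endoderm, had 6.52, 6.26 and 6.05 on the WT_EC arrays and 7.95, 7.96 and 7.78 on the ESC arrays (log2 difference 1.62, SE 0.141, adjusted p = 0.000425), below the median of all values in both groups. In the list for the embryo's 2-cell stage 1 of 6 measured genes was called higher, Zfp296 (log2 difference 1.42, SE 0.128, adjusted p = 0.000479), and 0 lower. All its other measured members, Zfp352 and Tcstv3 among them, were not called and had low signal in both groups. A call of Zfp296 alone does not show that stage.

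Splicing regulators are read beside shares of all genes of 19.1% higher and 12.3% lower, or 13.6% and 32.6% with the housekeeping shift. Of 24 splicing regulators 7 were called higher, 4 lower and 13 were not called, or 6 higher and 6 lower with that shift. Without WT_EC 1 their higher count was 11. Besides Esrp1, the higher ones included Rbpms2, an RNA binding protein, with 8.70, 7.27 and 8.21 on the WT_EC arrays and 12.17, 12.18 and 12.23 on the ESC arrays (log2 difference 4.13, SE 0.344, adjusted p = 0.00036). The muscleblind gene Mbnl1, a repressor of the stem cell splicing pattern, had 11.70, 11.91 and 11.98 on the WT_EC arrays and 10.31, 10.24 and 10.17 on the ESC arrays (log2 difference -1.62, SE 0.109, adjusted p = 0.000176). Celf2 was lower too (log2 difference -2.61, SE 0.256, adjusted p = 0.000667). Groups did not overlap in these genes.

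Promoter windows of 300 bases held a median of 20 CpG dinucleotides for genes called at least 4-fold higher in ESC (quartiles 10 and 27, 373 windows). The median was 9 for genes called at least 4-fold lower (quartiles 4 and 19, 196 windows) and 11 for genes not called. For the more numerous genes called by less than 4-fold it was 19 among the lower (1717 windows) and 22 among the higher (2641 windows). Genes of the X chromosome were called about as often as all genes, 19.2% of 739 higher and 12.6% lower, beside 19.1% and 12.3%. On the Y chromosome 5 of 9 genes were called higher and 0 lower.

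The comparison rests on 3 arrays a group from 1 stem cell line, and line, medium and cell type cannot be told apart. Levels of single genes were not ranked against each other, since probe sets differ in brightness. The same limit applies to low signal, which sets each gene against the median of all values, and to means over markers. Genes found only on probe sets of several genes were not analysed here.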
